A study of Homo sapiens with 3 samples.

Results

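The library labelled sgFLI1-2 was compared directly with the library labelled sgFLI1-1, the 2 FLI1 knockout (KO) samples of a 3-library RNA-seq series that also holds 1 wild-type (WT) sample. Every gene with at least 50 counts in either KO library was taken, which gave 11782 of the 61550 genes in the table. All 3 libraries came from HK1, an established nasopharyngeal carcinoma (NPC) cell line, and were made after incubation of the tumor cells with activated CD8+ T cells. The KO samples differ in the guide RNA used to disrupt FLI1, and the WT sample carries no KO. No source used here says whether a KO sample is 1 clone or a pool, or whether the cultures were grown side by side. A guide, a clone, a culture and a library therefore cannot be told apart here. With 1 library a side no difference has a replicate check, so the results are sizes with counting error and carry no p-values. The table's columns are numbered KO1 and KO2 and were matched to the guides by that number alone, and a swap would exchange the sides of every comparison below.

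FLI1 is a transcription factor of the ETS family, whose members bind DNA at sites built around the letters GGAA and act in blood, endothelial and tumor cells. A guide RNA directs Cas9 to cut a chosen site, and repair of the cut can shift the reading frame of the gene without removing its transcript. The transcript level of an edited gene is thus an indirect sign of editing. When one gene is targeted with different guides, genes that respond to its loss should move together in both lines, whereas differences between guides, clones or cultures remain when the KO lines are set against each other. In this study the tumor genes of interest were IDO1, the enzyme that starts the conversion of tryptophan to kynurenine, and its inducers in the interferon-gamma (IFN-γ) response.

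Each level is given as counts in the order sgFLI1-1, sgFLI1-2 and WT. The ratio is that of CPM, the counts scaled to the library total, on a log2 scale with sgFLI1-2 over sgFLI1-1, so a positive value means a higher level with sgFLI1-2. Its 95% interval is the exact (Clopper-Pearson) one for the split of a gene's reads between the libraries and covers counting error only. The libraries held 23904587, 22409203 and 22172158 counts. Mitochondrial transcripts took 1.02%, 1.09% and 1.07% of them. KRT8 and KRT18, keratins of simple epithelia, had 47902, 44097 and 40248 counts and 27678, 27686 and 21871 counts. They belong to a list of 9 epithelial and squamous markers. In that list DSP had 2306, 2446 and 2055 counts, SFN 1778, 1659 and 2322, and EPCAM 160, 93 and 183. CDH1 (40, 23 and 14) and KRT14 (12, 44 and 16) were low, and TP63 (0, 0 and 5) and KRT5 (0, 7 and 8) were near 0. Of 18 T cell markers, 15 had 0 counts in both KO libraries, CD3D, CD3E and CD8A among them, and the list summed to 6, 17 and 12 counts.

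Promoter sequences are shown for 3 of the genes that differed most and that overlap no other compared gene of their strand. NTSR1 (log2 ratio 3.59) and KCTD12 (2.17) differed more than MST1R (2.04) and are not shown. ETV1 and MST1R were higher with sgFLI1-2, and ORAI2 was lower. Each runs 5′ to 3′ along the gene's strand from 250 bases before its start to 50 after it (RefSeq, GRCh38.p14), with GGAA and its reverse complement TTCC in capitals. They lie at chr7:13990653-13990952 (minus strand), chr7:102433325-102433624 (plus strand) and chr3:49903824-49904123 (minus strand). The start meant is that of RefSeq. The ETV1 and ORAI2 windows lie inside the genes as annotated with the counts, which begin at 13991425 for ETV1 and 102433106 for ORAI2.
ETV1: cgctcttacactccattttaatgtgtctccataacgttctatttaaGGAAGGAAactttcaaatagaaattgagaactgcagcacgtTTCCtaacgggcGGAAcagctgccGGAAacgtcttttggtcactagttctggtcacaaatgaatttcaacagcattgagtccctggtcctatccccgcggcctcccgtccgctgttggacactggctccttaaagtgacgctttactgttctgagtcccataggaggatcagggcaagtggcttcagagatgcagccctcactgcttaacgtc
ORAI2: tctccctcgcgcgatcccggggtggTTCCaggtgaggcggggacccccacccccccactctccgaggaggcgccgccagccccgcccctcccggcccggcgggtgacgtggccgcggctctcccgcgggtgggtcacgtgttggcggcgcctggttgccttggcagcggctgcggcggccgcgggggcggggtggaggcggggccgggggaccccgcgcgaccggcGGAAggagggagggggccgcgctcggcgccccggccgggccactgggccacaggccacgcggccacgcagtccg
MST1R: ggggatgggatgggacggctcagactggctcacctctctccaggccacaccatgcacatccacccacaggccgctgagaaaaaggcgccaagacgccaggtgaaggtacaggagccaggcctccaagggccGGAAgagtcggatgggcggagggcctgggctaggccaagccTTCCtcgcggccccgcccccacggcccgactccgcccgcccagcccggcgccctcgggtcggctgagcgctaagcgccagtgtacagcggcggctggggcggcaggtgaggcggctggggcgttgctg

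The ETV1 window holds 5 GGAA cores, ORAI2 and MST1R hold 2 each. The longer string CCGGAAG, searched on both strands like GGAA, occurs once in MST1R and not in the other windows. GGAA alone was present in 95.5% of 27305 promoters of this length, so it separates no group. CCGGAAG was present in 10.7% of all promoters and in 21.1% of the 9126 compared genes with a promoter in the table. It occurred in 10 of 111 promoters (9.01%) of genes at least 2-fold higher with sgFLI1-2 and in 9 of 47 (19.1%) of those at least 2-fold lower. These are counts of letters in a window and are no record of binding.

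The KO libraries resembled each other across most genes. The median log2 ratio was 0.01, the middle 50% of genes lay between -0.15 and 0.20, and 10722 genes (91.0%) were within 1.5-fold. At least 2-fold higher with sgFLI1-2 were 212 genes (1.8%), and at least 2-fold lower 111 (0.942%). In 105 of them (0.891%) and 56 (0.475%) the whole interval lay past 2-fold, which is meant by beyond counting error from here on. The distance to WT was larger for each library, with 1195 genes (10.1%) at least 2-fold from WT with sgFLI1-1 and 882 (7.49%) with sgFLI1-2.

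Low counts carried much of the difference. Genes with a mean under 100 counts gave 110 higher and 73 lower among 1269 (14.4%). Those from 100 to 1000 counts gave 89 and 34 among 5603 (2.2%), and those above 1000 counts 13 and 4 among 4910 (0.346%). Genes with a mean under 50 counts were taken only through the library where they were high. Part of the 14.4% thus follows from the rule itself. The interval excluded equal levels in 6545 genes (55.6%), since deep counts make small ratios measurable. That share says nothing on how independent cultures would vary. At the edge of the rule, 24 genes had exactly 50 counts in their higher library and were taken, and 29 had 49 and were not.

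**Figure D1:**
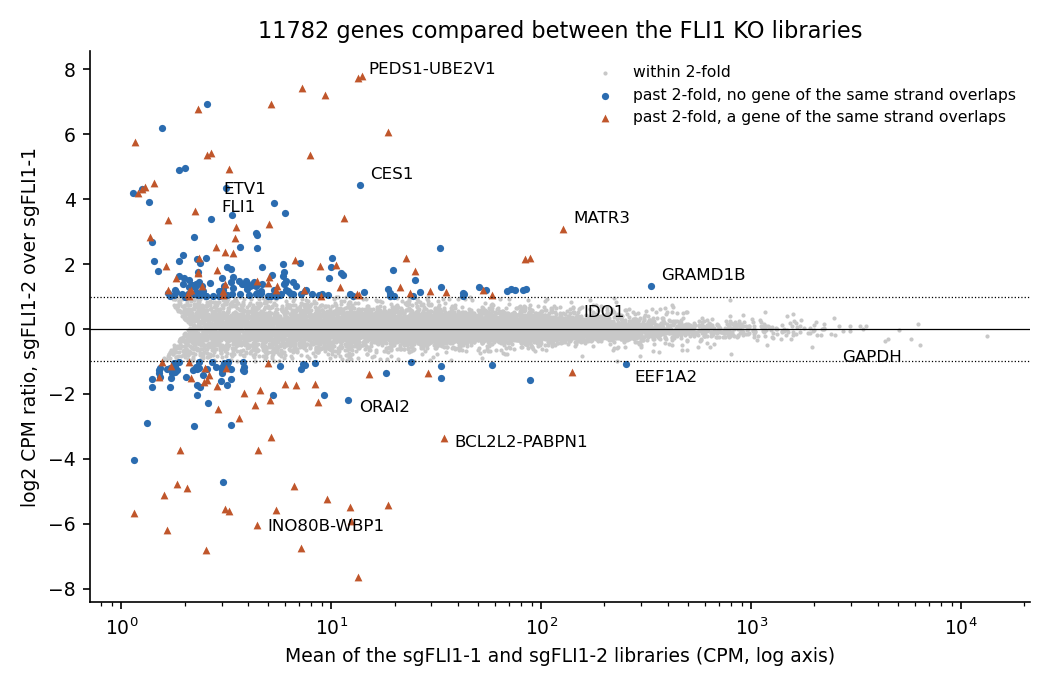
Each point is 1 of 11782 genes, with its mean CPM in the KO libraries on the x axis (log axis) and the log2 CPM ratio of sgFLI1-2 over sgFLI1-1 on the y axis. Dotted lines mark 2-fold. Genes past them are coloured by whether a compared gene of the same strand overlaps them. The grey band narrows to the right, and most points far from 0 lie at low CPM.

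FLI1 itself differed between the libraries. FLI1 (chromosome 11, 128686535 to 128813267, GRCh38) had 11 counts with sgFLI1-1, 109 with sgFLI1-2 and 125 in WT. The sgFLI1-1 library was low and the sgFLI1-2 library was close to WT. The log2 ratio between the KO libraries was 3.40 (2.51 to 4.45), 10.6-fold. Its FPKM values were low, 0.076 and 1.12, so that on log2(FPKM + 1) the difference was 0.98, just under 2-fold. SENCR, a long noncoding RNA that starts within FLI1 on the opposite strand, followed the same order with 24, 174 and 134 counts and a log2 ratio of 2.95 (2.33 to 3.63). The counting was not stated to use strand, so reads of FLI1 and SENCR may be mixed. Both guides were designed against the same gene, and these counts do not tell whether the protein was lost in either sample.

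The ETS family held the widest spread of any list with at least 10 compared genes. Of its 18 compared members 3 were at least 2-fold higher and 1 lower, beside 1.8% and 0.942% of all genes. The edited gene FLI1 is 1 of these 3, and 3 members of the list lie in the chromosome stretches described below. The median log2 ratio of the list was 0.11 beside 0.01 for all genes. ETV1, an activator downstream of growth factor signalling, had 16, 223 and 280 counts, so that sgFLI1-2 was near WT and sgFLI1-1 was low (log2 ratio 3.89, 3.16 to 4.73). ETV7, an interferon-induced repressor, had 20, 84 and 654 counts (2.16, 1.45 to 2.95) and was below WT in both. ETS1, the neighbour of FLI1 on chromosome 11, had 1773, 3127 and 4212 counts and a log2 ratio of 0.91 (0.83 to 1.00). ELF3, an epithelial ETS factor, was lower with sgFLI1-2 at 62, 24 and 48 counts (-1.28, -2.02 to -0.58). ETV4 (0.02), ETV5 (-0.06), ELF1 (-0.01) and ELK3 (0.03) were nearly equal.

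Among genes examined in the study, IDO1 and IRF1 were alike between the KO libraries, with WT far from both. IDO1 had 3389, 3310 and 21493 counts, a log2 ratio of 0.06 (-0.01 to 0.13) between the KO libraries. IRF1, a transcription factor induced by IFN-γ, had 3520, 3655 and 25965 counts (0.15, 0.08 to 0.21). Both genes stood well below WT in both KO libraries, and the KO libraries differed by at most 1.11-fold.

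CD274, which encodes the checkpoint ligand PD-L1, was less even at 1625, 2377 and 3510 counts, 1.56-fold higher with sgFLI1-2 (0.64, 0.55 to 0.73). JAK2, a kinase of the IFN-γ receptor, had 284, 318 and 604 counts (0.26, 0.02 to 0.49). Among acetyltransferases, CREBBP, which encodes CBP, had 1773, 2121 and 2250 counts (0.35, 0.26 to 0.44), EP300 had 719, 945 and 1141 (0.49, 0.35 to 0.63) and KAT5 had 887, 752 and 862 (-0.15, -0.29 to 0.00). The CREBBP and EP300 levels of sgFLI1-2 were thus the nearer to WT. AHR, the receptor for kynurenine, had 1444, 996 and 1096 counts (-0.44, -0.56 to -0.33). Its target CYP1B1 had 788, 488 and 5297 (-0.60, -0.76 to -0.43). CYP1B1 was thus far below WT in both KO libraries and 1.51-fold lower with sgFLI1-2 than with sgFLI1-1. CYP1A1, with 11, 15 and 69 counts, was under the minimum, and its interval (-0.68 to 1.81) was too wide to order the libraries. The study measured CYP1A1 and CYP1B1 transcripts in cocultured T cells, whereas the counts here are from the tumor cells.

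Many of the largest ratios belonged to genes that overlap a neighbour. Of the 212 higher genes 65 (30.7%), and of the 111 lower genes 46 (41.4%), overlapped another gene on the same strand, against 967 of all 11782 (8.21%). Beyond counting error the numbers were 46 of 105 and 36 of 56. Many were readthrough genes, annotated across a pair of neighbouring genes, to which a read in a shared exon can be assigned in more than one way. PEDS1-UBE2V1, which joins PEDS1 and the ubiquitin-conjugating enzyme variant UBE2V1, had 0, 598 and 0 counts. With the sgFLI1-1 library set to a floor of 3 counts, the level was 213-fold higher with sgFLI1-2. The exact interval had a lower limit of 7.43 on the log2 scale. Added to PEDS1 and UBE2V1, the counts gave a log2 ratio of 0.17.

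On the lower side the same was seen. BCL2L2-PABPN1, which spans an anti-apoptotic gene and a poly(A)-binding protein gene, had 1493, 135 and 757 counts (-3.37, -3.64 to -3.12). PABPN1 alone went the other way with 2070, 3197 and 2342 counts, and the 3 genes together had a log2 ratio of 0.00. INO80B-WBP1 had 211, 0 and 92 counts, 65.9-fold lower with sgFLI1-2 by the same floor (interval limit -5.73 on the log2 scale). Its log2 ratio was 0.04 when INO80B and WBP1 were added. CORO7-PAM16 had 256, 5 and 170 counts (-5.58, -7.22 to -4.34) and -0.08 in the sum.

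MATR3, which encodes a nuclear matrix RNA-binding protein, had 642, 5093 and 4587 counts (3.08, 2.96 to 3.20), while the overlapping gene with no symbol (ENSG00000280987) had 14504, 8635 and 7185. Their sum gave -0.05. RPS10-NUDT3 (736, 3046 and 351 counts) gave -0.02 in the sum, SENP3-EIF4A1 (754, 3246 and 2499) 0.01 and HERC3, a ubiquitin ligase gene (47, 470 and 648), 0.07. TVP23C-CDRT4 (103, 376 and 360) and CDRT4 (224, 21 and 20) moved in opposite directions. With the overlapping TVP23C added to both, the sum gave 0.16. AHRR, the repressor of AHR, had 75, 176 and 78 counts, but 0.20 once PDCD6-AHRR (88, 0 and 81) was added. An exception was KMT2D, a histone methyltransferase gene, with 910, 1746 and 2166 counts and 0.86 in the sum, and with FPKM values of 2.59 and 10.3 in the KO libraries. The assignment of reads to overlapping genes was not tested beyond these sums.

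**Figure D2:**
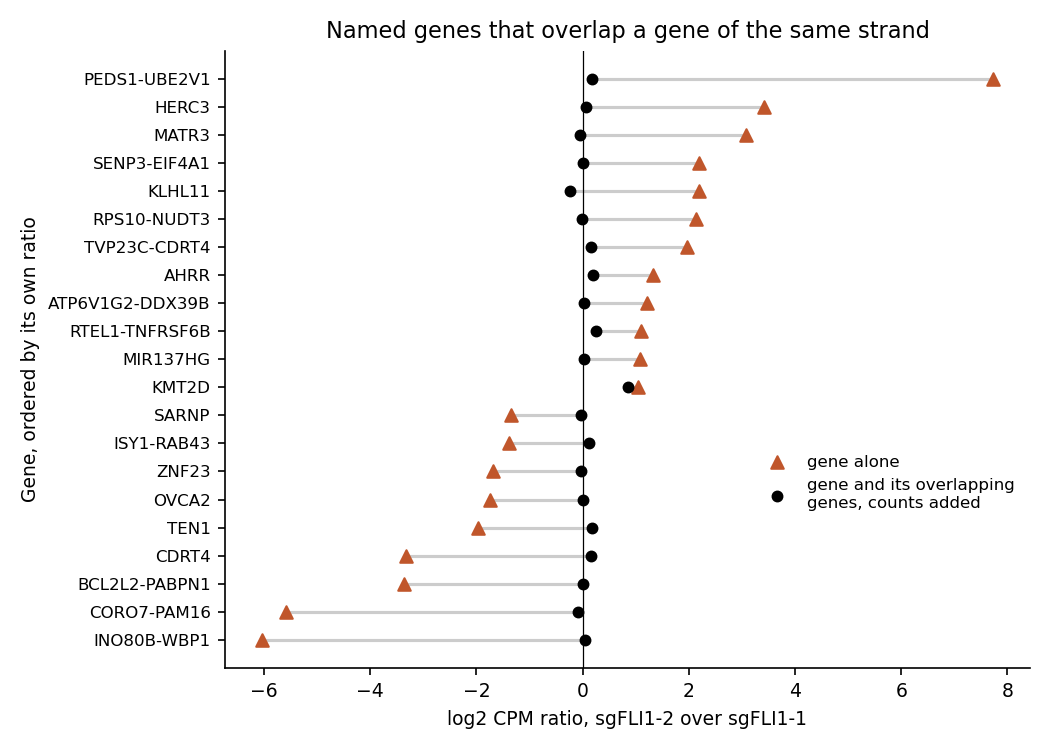
The x axis gives the log2 CPM ratio of sgFLI1-2 over sgFLI1-1 for named genes that overlap a gene of the same strand, on their own (triangles) and with the counts of the overlapping genes added (black points). The sums lie between -0.24 (KLHL11) and 0.86 (KMT2D), while the genes alone run from -6.04 to 7.73.

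Among genes free of such overlap, CES1, a carboxylesterase of drug and lipid ester hydrolysis, differed most of those with at least 200 counts. CES1 (chromosome 16, 55802851 to 55833337) had 29, 586 and 28 counts, so that sgFLI1-2 alone was high (log2 ratio 4.43, 3.89 to 5.02, 21.6-fold). NTSR1, the neurotensin receptor, had 22, 248 and 216 counts (3.59, 2.96 to 4.29), and here sgFLI1-1 was the low library. STC1, a secreted glycoprotein hormone, had 237, 1246 and 2113 counts (2.49, 2.29 to 2.69). MST1R, the receptor tyrosine kinase RON, had 66, 255 and 355 counts (2.04, 1.65 to 2.46). In STC1 and MST1R both KO libraries were below WT, sgFLI1-1 by far the more.

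KCTD12, an auxiliary subunit of GABA-B receptors, had 87, 368 and 141 counts (2.17, 1.83 to 2.53), with WT between. CCDC69 had 56, 211 and 39 counts (2.01, 1.58 to 2.46), and LOXL1, a lysyl oxidase that crosslinks elastin, had 100, 351 and 103 (1.90, 1.58 to 2.24). By FPKM the LOXL1 values of 3.26 and 6.48 were closer together, just under 2-fold. In CCDC69 and LOXL1, as in CES1, the sgFLI1-2 library stood above the other 2. MAGEA1, a cancer-testis antigen gene on the X chromosome, had 3, 87 and 404 counts (4.95, 3.36 to 7.26).

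Other higher genes encode secreted or surface proteins named here one by one. COL6A3, a collagen VI chain, had 208, 691 and 1193 counts (1.83, 1.60 to 2.06), and MMP1, the interstitial collagenase, had 47, 166 and 59 (1.91, 1.44 to 2.41). ADAM8, a membrane metalloprotease, had 129, 386 and 225 (1.67, 1.38 to 1.97), and SEMA3A, a guidance ligand, had 123, 382 and 173 (1.73, 1.43 to 2.03). For these 4 genes the WT level lay near sgFLI1-1 in MMP1, above both in COL6A3, and between the KO libraries in the others. CDH5, the cadherin of endothelial junctions, had 96, 194 and 27 counts (1.11, 0.75 to 1.48), above WT in both KO libraries. It belongs to a list of 7 fibroblast and endothelial markers, whose 4 compared members were all higher with sgFLI1-2 (median 0.51) and whose median was above WT in both libraries (0.94 and 1.21). The list summed to 671, 882 and 463 counts, with DCN at 0 in all 3 libraries and VWF at 1, 4 and 8.

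The lower genes were fewer and mostly of lower count. ORAI2 (chromosome 7, 102433106 to 102456825), a calcium channel subunit of the plasma membrane, had 472, 98 and 230 counts (-2.17, -2.50 to -1.86). CA2, a carbonic anhydrase, had 357, 81 and 341 counts (-2.05, -2.41 to -1.70), so that sgFLI1-2 was the low library. MCTP2, a C2-domain membrane protein, had 203, 46 and 24 counts (-2.05, -2.54 to -1.58), and WNT6, a secreted WNT ligand, had 624, 228 and 66 (-1.36, -1.58 to -1.14). In MCTP2 and WNT6 the sgFLI1-1 library was the highest of the 3.

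EEF1A2, a translation elongation factor, had the most counts among the lower genes that overlap no other compared gene, at 8154, 3655 and 3063 counts (-1.06, -1.12 to -1.01). PI3, the elastase inhibitor elafin, had 107, 33 and 0 counts (-1.60, -2.21 to -1.03). NEDD4L, a ubiquitin ligase, had 1891, 825 and 2215 counts (-1.10, -1.22 to -0.98). APC, a regulator of beta-catenin, had 770, 353 and 687 counts (-1.03, -1.22 to -0.85), but its deposited FPKM values of 2.84 and 2.83 did not differ. PLLP, plasmolipin, was likewise 1093 and 465 by count and 8.97 and 7.73 by FPKM.

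**Figure D3:**
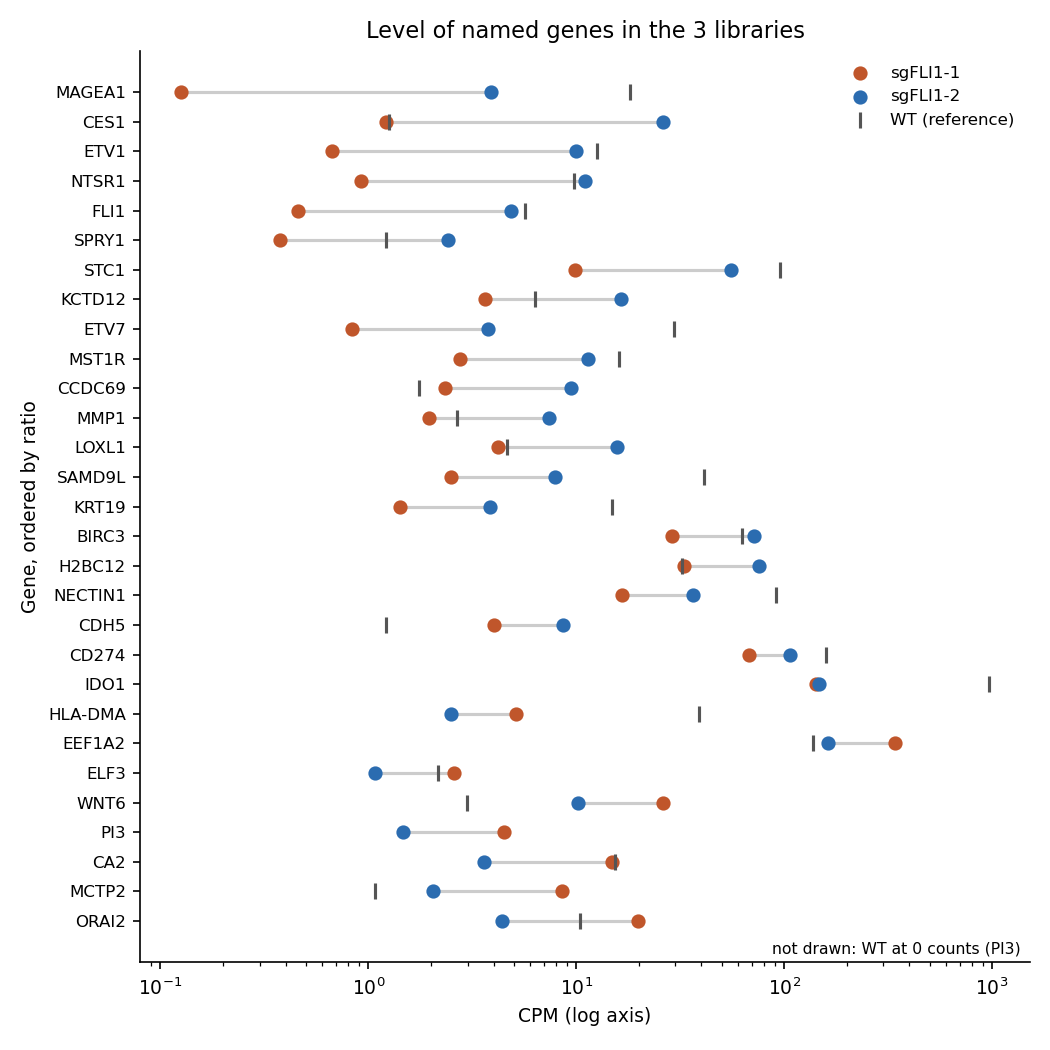
CPM (log axis) in the sgFLI1-1, sgFLI1-2 and WT libraries, 1 value each, ordered by the ratio of sgFLI1-2 to sgFLI1-1. The named genes shown overlap no other compared gene of their strand. IDO1 shows the KO points together and far from WT, whereas CES1, ETV1 and FLI1 show them apart; WT is not drawn for PI3, which had 0 counts there.

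The WT level placed the difference on one side more often than on the other. Of the 212 genes higher with sgFLI1-2, WT was within 1.5-fold of sgFLI1-2 alone in 104 (49.1%), within 1.5-fold of sgFLI1-1 alone in 36, between them in 28, above both in 33 and below both in 11. Of the 111 lower genes WT was near sgFLI1-2 in 40, near sgFLI1-1 in 27, between in 17, above both in 6 and below both in 21. Over all 11782 genes sgFLI1-1 was also the farther from WT, with 1195 genes at least 2-fold away against 882 with sgFLI1-2. Genes that overlap a neighbour are included in these counts. The WT library was itself a single sample, and these are descriptions of 3 libraries.

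A total of 4 chromosome stretches stood out when genes were ordered by position. Medians of 10 Mb windows with at least 15 genes were within 0.3 of the all-gene median in 251 of 259 windows, which ran from -0.23 to 0.26. The other 8 windows formed stretches on chromosomes 9, 10, 11 and 12, together 359 genes. Outside them 189 genes were at least 2-fold higher and 109 lower. The stretches were chosen by this same ratio. The shares of higher or lower genes within them, given below, follow in part from that choice and are no separate support.

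The largest stretch was the end of the long arm of chromosome 11, from 100 to 130 Mb, where FLI1 lies. Of its 126 genes 118 were higher with sgFLI1-2 and 21 (16.7%) by at least 2-fold, beside 1.8% of all genes. FLI1 and SENCR are among the 21. The median log2 ratio of the stretch was 0.56 (1.48-fold). Against WT the medians were -0.53 with sgFLI1-1 and 0.06 with sgFLI1-2, so the sgFLI1-1 library was the one that stood apart. In 5 Mb steps the median was -0.21 from 95 to 100 Mb, 0.45 from 100 to 105 Mb, 0.66 from 115 to 120 Mb and 0.70 over the 8 genes from 130 to 135 Mb. The step thus fell near 100 Mb, as far as 5 Mb steps can place it, with 10 genes from 100 to 105 Mb. The shift reached the last genes of the arm. Single genes near this edge did not all follow. CEP126, which starts at 101915010, had 103, 48 and 70 counts (-1.01, -1.53 to -0.50). It was the 1 gene of the stretch at least 2-fold lower.

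Near FLI1 itself, all 15 compared genes within 2.5 Mb of its start, FLI1 and SENCR aside, were higher with sgFLI1-2, with a median of 0.64. APLP2, an amyloid precursor-like protein, had 7244, 10602 and 8951 counts (0.64, 0.60 to 0.69), and NFRKB, a chromatin remodelling subunit, had 775, 1363 and 1058 (0.91, 0.78 to 1.04). ST14, the epithelial serine protease matriptase, had 25, 175 and 106 counts (2.90, 2.29 to 3.57). The FLI1 ratio of 3.40 was thus far above that of most of its neighbours, and ST14 came nearest among genes other than SENCR.

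Further genes of the stretch had roles of their own. GRAMD1B, a sterol transfer protein, had the most counts among those past 2-fold, at 4571, 10648 and 7608 counts (1.31, 1.26 to 1.36). BIRC3, an inhibitor of apoptosis in NF-κB signalling, had 693, 1608 and 1383 counts (1.31, 1.18 to 1.44), and NECTIN1, an adhesion receptor, had 395, 820 and 2022 (1.15, 0.97 to 1.32). MPZL2, an epithelial adhesion protein, had 313, 834 and 888 (1.51), ROBO3 and ROBO4, receptors of the Slit family, had 13, 87 and 174 (2.84) and 46, 120 and 292 (1.48). HSPA8, the constitutive heat-shock chaperone, had 52117, 61691 and 37831 (0.34), and YAP1, the effector of Hippo signalling at the edge of the stretch, had 4532, 4169 and 3758 (-0.03, -0.09 to 0.03). MMP1, named above, lies in this stretch too.

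On chromosome 12 the first 20 Mb were lower with sgFLI1-2 in 91 of 107 genes, with a median of -0.37, from 0.29 above WT with sgFLI1-1 to -0.06 with sgFLI1-2. GAPDH, a glycolytic enzyme often used as a reference, lies here and had 118395, 89952 and 88812 counts (-0.30, -0.32 to -0.29). YBX3, an RNA-binding cold-shock protein, had 13637, 8153 and 7899 (-0.65, -0.69 to -0.61), and FOXM1, a cell cycle transcription factor, had 11240, 8740 and 9379 (-0.27, -0.31 to -0.23). Here too sgFLI1-2 was close to WT in GAPDH and YBX3.

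The stretch of chromosome 10 from 80 to 100 Mb was lower in 78 of 89 genes with a median of -0.35, and the medians against WT were 0.38 with sgFLI1-1 and 0.08 with sgFLI1-2. In 5 Mb steps the shift passed these edges, with a median of -0.43 over the 12 genes from 75 to 80 Mb of chromosome 10 and -0.47 over the 10 genes from 20 to 25 Mb of chromosome 12. PGAM1, another glycolytic enzyme, had 22203, 17383 and 17037 counts (-0.26, -0.29 to -0.23) and GHITM, a mitochondrial inner membrane protein, had 15743, 10113 and 9936 (-0.55, -0.58 to -0.51). On chromosome 9 from 110 to 120 Mb, 33 of 37 genes were higher, median 0.39, with -0.14 and 0.15 against WT. Chromosome 9 as a whole had the highest median of any chromosome (0.18), and 10 of its 11 windows were above 0. Copy number was not measured in these data, and its part in the stretches was not tested.

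**Figure D4:**
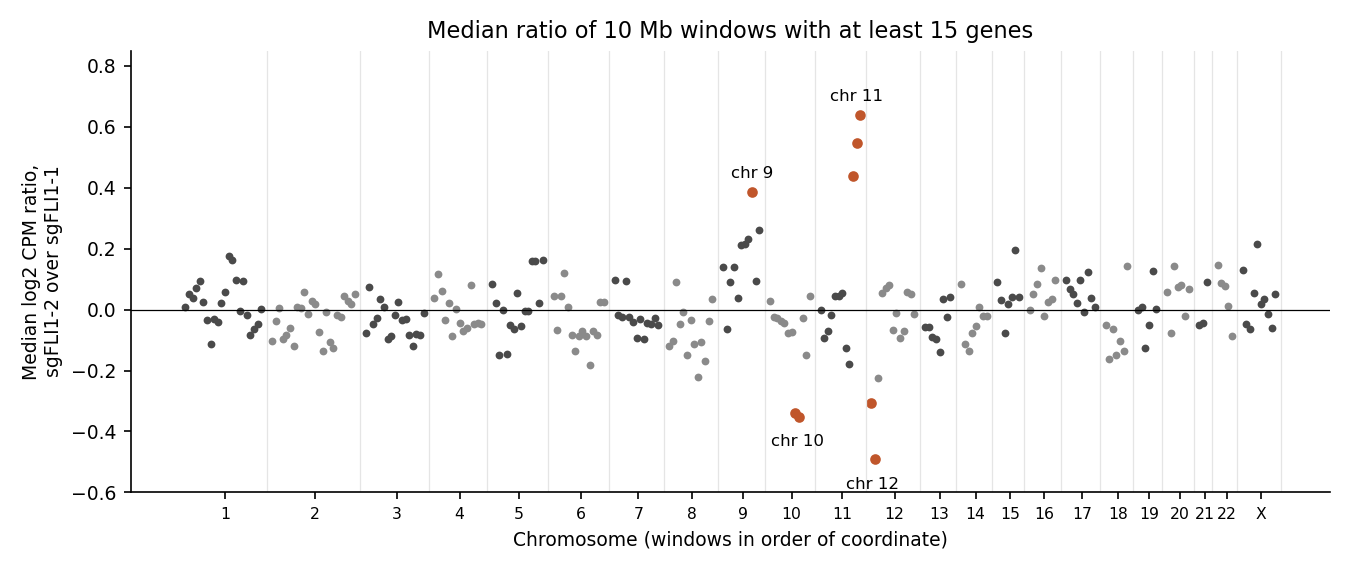
Each point is the median log2 CPM ratio of sgFLI1-2 over sgFLI1-1 in a 10 Mb window with at least 15 genes, in order along the chromosomes on the x axis. The 8 coloured windows lie at least 0.3 from the all-gene median; those of chromosome 11 run from 0.44 to 0.64, and the grey windows lie between -0.23 and 0.26.

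Pathway lists of at least 10 compared genes moved little between the KO libraries. In all 29 the median log2 ratio lay between -0.26 and 0.25, beside 0.01 for all genes. Of the 614 compared genes in the lists, 16 were at least 2-fold higher and 3 lower, beside the 1.8% and 0.942% of all genes. The IFN-γ list, with median levels far below WT in both libraries (-2.72 and -2.66), differed by a median of 0.05 between them, with 18 of 32 genes higher and none past 2-fold.

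Type I interferon-stimulated antiviral genes were slightly but broadly higher with sgFLI1-2, in 33 of 37 genes with a median of 0.21, where 52.1% of all genes were higher. SAMD9L, an antiviral and growth-restraining protein, had 60, 178 and 911 counts (1.66, 1.23 to 2.11) and was the 1 member past 2-fold. Its neighbour SAMD9 had 243, 429 and 839 (0.91), OAS3, an enzyme that senses double-stranded RNA, had 1576, 2464 and 6270 (0.74, 0.65 to 0.83), and STAT2 had 282, 405 and 1048 (0.62). IFIT1, which binds foreign RNA caps, had 1214, 1144 and 477 (0.01), and IFIT5 had 715, 432 and 1583 (-0.63, -0.81 to -0.46). In this list 4 members lie in the chromosome stretches described above.

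The antigen presentation genes are given by class. The 18 MHC class I genes had a median of 0.17, with 12 higher, for example HLA-B at 917, 1045 and 9374 counts (0.28) and the peptide transporter TAP2 at 2983, 3457 and 11835 (0.31), whereas B2M, the light chain, was lower at 20231, 17135 and 42884 (-0.15). Of 5 class II genes 4 were lower. HLA-DRA had 203, 118 and 2165 counts (-0.69, -1.03 to -0.36), HLA-DMA, a peptide exchange factor, had 122, 56 and 863 (-1.03, -1.51 to -0.56), and CD74, the invariant chain, had 606, 444 and 10932 (-0.36). CTSS, the protease that trims the invariant chain, was higher at 212, 340 and 3060 (0.77, 0.52 to 1.03).

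Cholesterol synthesis genes were lower with sgFLI1-2 in 17 of 22, with a median of -0.14 and none past 2-fold. INSIG1, a sterol sensor, had 813, 447 and 1135 counts (-0.77, -0.94 to -0.60), HMGCS1, the synthase before the rate-limiting step, had 4978, 3249 and 4715 (-0.52), and SCD, the fatty acid desaturase, had 17021, 11706 and 13110 (-0.45). The stress list of amino acid and unfolded protein responses was lower in 13 of 19 (median -0.20), with ASNS at 1598, 970 and 4686 (-0.63) and CEBPB at 6325, 3991 and 6530 (-0.57). In these examples the WT level was above the sgFLI1-2 level in every case.

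Of the tryptophan list, KYNU, which splits kynurenine further, was the member that differed most, at 9587, 6501 and 6246 counts (-0.47, -0.51 to -0.42). The cytokine IL6 had 577, 283 and 530 counts (-0.93, -1.14 to -0.73), and TNFAIP3, a feedback inhibitor of NF-κB, had 3642, 4743 and 2834 (0.47). Of the lists with at least 10 compared genes, junction genes had the lowest median (-0.26, 11 of 18 lower), with OCLN, occludin, at 61, 33 and 21 counts (-0.79) and PARD6B, a polarity protein, at 144, 76 and 35 (-0.83), though CLDN4, a claudin, was higher at 282, 477 and 236 (0.85). The junction median turned to 0.11 over the 12 members with at least 200 counts, so its direction rests on members of low count. Integrins and laminins had the highest median of these lists (0.25, 12 of 17 higher), with ITGA2 at 1680, 2401 and 2050 (0.61) and LAMB3 at 18611, 23281 and 19928 (0.42).

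Genes of growth and housekeeping were close to even. Cell cycle genes had a median of 0.01, with 19 of 32 higher, and ribosomal protein genes -0.09, with 22 of 33 lower. Mitochondrially encoded genes were higher in 11 of 13 (0.16). All 5 replication-dependent histone genes compared were higher (median 0.60), H2BC12 by 787, 1697 and 712 counts (1.20, 1.08 to 1.33). These histone transcripts mostly lack poly(A) tails, and the libraries were made from poly(A) RNA.

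**Figure D5:**
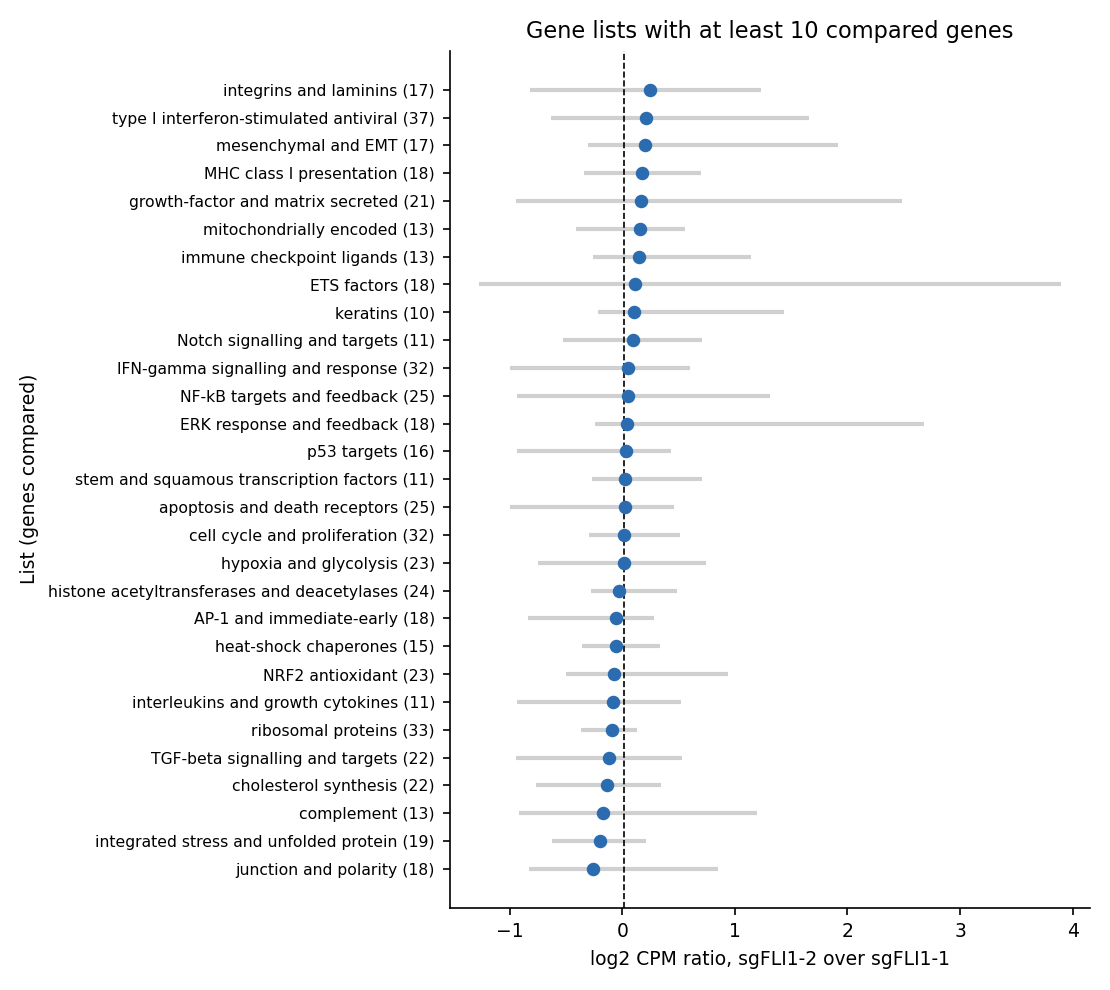
Median log2 CPM ratio of sgFLI1-2 over sgFLI1-1 (points) and the range from lowest to highest member (grey bars) for the 29 lists with at least 10 compared genes, whose number stands in brackets. The dashed line is the all-gene median of 0.01, and all list medians lie within 0.3 of 0.

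A weak trend with transcript length ran through the comparison. By deciles of the transcript length implied by the WT counts and FPKM, the median log2 ratio of protein-coding genes went from -0.07 in the shortest decile to 0.13 in the longest. The sgFLI1-1 library carried it, with medians against WT from 0.11 to -0.15, while sgFLI1-2 went from 0.04 to -0.02. The 82 processed pseudogenes, which are short copies of spliced transcripts, had a median of -0.40. That is lower than the -0.07 of the shortest protein-coding decile, and whether length accounts for the pseudogene value was not tested. The part of length in the list medians was measured by centring each decile. After that, 38 of 39 list medians stayed within the rank-based interval of the uncentred median over the list's genes. The mitochondrially encoded list moved from 0.16 to 0.24. The integrin and laminin median went from 0.25 to 0.15 and was then not the highest of the lists with at least 10 compared genes.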

How the data were processed

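Poly(A) RNA-seq was measured in 3 HK1 samples. According to the labels and published methods, the authors trimmed reads with fastp (0.23.2), aligned them to GRCh38 with HISAT2 (2.0.4) and assembled them with StringTie (1.3.4d). The authors deposited read counts per gene and FPKM values per gene in 1 table. The counting tool and strand setting are not given in the sources used here. One count column has HK in place of HK1 in its name and was taken as the same line. The columns of the authors' annotation were used for names and positions.

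Counts were divided by library totals. Ratios over genes with at least 50 counts in a KO library carried an exact 95% interval, a library at 0 being set to 3 counts. FPKM values served as the alternative log2(FPKM + 1). Named genes were FLI1 and the study's genes, the 15 higher and 15 lower genes with the largest ratio beyond counting error (symbol, at least 200 counts), up to 4 past 2-fold per list, 6 of most counts per stretch and 5 per WT position; other list members were named after their values were seen. Members and lists were chosen with earlier results of these data known. TMM factors came from edgeR (4.0.16) in R 4.3.3; other steps used Python 3.11.15, scipy 1.17.1 and pandas 2.3.3. Scripts were tested on simulated data. Some genes of the lists are not reported here. Promoters were RefSeq's (GRCh38.p14), and 95.0% of compared genes had the start and end of GENCODE 44.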

Additional observations from a re-analysis of the deposited data

Results flagged for a closer look

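In 4 named genes the KO libraries lay on opposite sides of WT with the whole 95% interval of each library's ratio to WT past 1.5-fold, and the difference was not tested because each side is 1 library. KLHL11 had 194, 830 and 386 counts with sgFLI1-1, with sgFLI1-2 and in WT (log2 ratio 2.19). ORAI2 had 472, 98 and 230 (-2.17). BCL2L2-PABPN1 had 1493, 135 and 757 (-3.37), and INO80B-WBP1 had 211, 0 and 92 (-6.04, with the library at 0 set to 3 counts). KLHL11, BCL2L2-PABPN1 and INO80B-WBP1 overlap a gene of the same strand, and with those counts added their ratios were -0.24, 0.00 and 0.04. ORAI2 has no such overlap with a compared gene. KCTD12, SEMA3A, ADAM8, SPRY1, BMP2K, LAPTM5, SARNP and OVCA2 also lay past 1.5-fold on opposite sides by their ratios, but not with both intervals.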

How the results depend on the processing

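No named gene past 2-fold and no stretch median changed sign under the alternatives run for it. List medians did in 22 of 195 cases, of which junction (-0.26 to 0.11) and chemokine genes (0.08 to -0.29 over 4 genes), both with a minimum of 200 counts, moved furthest. The count of genes at least 2-fold apart (323, of which 212 higher and 111 lower with sgFLI1-2) was 130 (84 and 46) on log2(FPKM + 1), 1457 (860 and 597) with a minimum of 10 counts, 107 (74 and 33) with 200 and 5513 (2831 and 2682) with none, where the share higher was 51.4%. It was 1060 (635 and 425) at 1.5-fold and 97 (61 and 36) at 4-fold. Genes with a symbol gave 73 lower. Chosen after seeing the data, leaving out overlapping genes gave 212 in all and 65 lower. TMM factors, median-of-ratios size factors and totals without the 20 most abundant genes shifted every ratio by -0.02, -0.05 and -0.01 (log2). Genes of the lists past 2-fold were 12 on log2(FPKM + 1), 7 with a minimum of 200 counts and 80 at 1.5-fold, against 19. Stretch medians on log2(FPKM + 1) were 0.17, -0.27, 0.48 and -0.29 on chromosomes 9, 10, 11 and 12, and 0.51 on chromosome 11 with median-of-ratios factors. Of 69 named genes past 2-fold, 29 were not on log2(FPKM + 1), FLI1 (0.98) among them, 8 on log2(FPKM + 0.1), 2 with median-of-ratios factors and 0 with TMM. No paired analysis was possible because each group holds 1 library, which also leaves no replicate to leave out. With 1 library a side, sizes are limited by counting error at low counts and by the unknown spread between cultures throughout.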

Other observations

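On chromosome 7 the KO libraries were alike and both below WT, with medians of -0.42 (sgFLI1-1) and -0.46 (sgFLI1-2) against WT and -0.03 between them.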
